A study of Homo sapiens
Mus musculus with 2 samples.

Results

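The plasma cell programme was described here through 8 mouse genes, Xbp1 (mm10_ENSMUSG00000020484), Irf4 (mm10_ENSMUSG00000021356), Prdm1 (mm10_ENSMUSG00000038151), Pou2af1 (mm10_ENSMUSG00000032053), Sdc1 (mm10_ENSMUSG00000020592), Tnfrsf17 (mm10_ENSMUSG00000022496), Mzb1 (mm10_ENSMUSG00000024353) and Derl3 (mm10_ENSMUSG00000009092), chosen by name from the 14740 mouse genes present in either count table. All 8 had at least 1 UMI (unique molecular identifier, which counts PCR copies of a molecule once) in mouse cells. Their levels were followed over 770 mouse cells, defined as barcodes with at least 1000 UMIs of which at least 90% were mouse. Of these, 85 came from a Drop-seq library loaded at 150 cells/µl and 685 from a library loaded at 300 cells/µl. Both libraries were made from the same kind of sample, an untreated mixture in equal parts of Jurkat and TALL-104 (human T cell lines), EL4 (a mouse T cell line) and IVA12 (a mouse B cell line). IVA12 is a B hybridoma line. Each line is an established culture, and each loading concentration had 1 library and no replicate.

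Plasma cells are the antibody-secreting end stage of the B lineage. Irf4 and Prdm1 (Blimp-1) are transcription factors that drive a B cell toward this state, Xbp1 expands the endoplasmic reticulum and the secretory machinery, and Pou2af1 (OCA-B) is a coactivator of octamer-binding factors on immunoglobulin genes. Sdc1 (CD138) and Tnfrsf17 (BCMA) are surface proteins used to recognise plasma cells. Mzb1 is a chaperone-like protein of the endoplasmic reticulum that assists antibody assembly, and Derl3 takes part in the removal of misfolded proteins from that compartment.

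The mouse cells were divided without the 8 genes or any other gene discussed below. Clustering of the remaining genes gave 6 clusters, which joined into 2 groups. The group with the higher level of T cell markers less B cell markers was named the T group. The direction of the marker values below therefore follows in part from this naming. The T group held 50 cells at 150 cells/µl and 388 at 300 cells/µl, and the B group held 35 and 297. The 12 T cell markers summed to 3576 and 3949 CPM (counts scaled to 1000000 mouse UMIs) in the T group of the 2 libraries and to 45.6 and 173 CPM in the B group. The B cell markers summed to 1266 and 1187 CPM in the B group and to 15 and 18.9 CPM in the T group. Thy1, Lat, Cd3d and Tcf7 gave most of the T cell signal, with Thy1 at 872 and 1010 CPM in the T group and 0 and 34.7 CPM in the B group. In the comparison described below, 11 of the 12 T cell markers were called lower in the B group, Cd2 was not called, and the 3 B cell markers that passed the filter were called higher. Of all genes tested, 29% were called lower and 27.7% higher. The filter keeps a gene with enough UMIs in 1 group alone, so the calls of such markers follow in part from it. The B cell signal rested on Cd79b, Ms4a1 and Blnk, while Ebf1 had 21 UMIs, all in the B group, and Pax5 and Cd79a, defining markers of B cells, had 1 and 2 UMIs in the whole B group. Cd22 had 10 UMIs in the T group and 1 in the B group, Bcl6 6 and 4, Btk 3 and 3, and Ciita 2 and 0. One B group cluster of 86 cells was shallow, with median depths of 1613 and 1357 UMIs, and stays unnamed. It carried 979 CPM of T cell markers beside 883 CPM of B cell markers, and 16 of its cells had more T than B marker UMIs. A second shallow cluster of 47 cells lay in the T group. Main values without these shallow clusters are given below. No barcode was shared between the libraries, and no doublet caller was run.

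The transcription factors were all higher in the B group in both libraries. For Xbp1, the level was 434 CPM at 150 cells/µl and 569 CPM at 300 cells/µl in the B group, against 50.0 and 71.4 CPM in the T group. For Irf4, the B group held 69.5 and 104 CPM and the T group 10 and 12.6 CPM. For Prdm1, the B group held 34.8 and 48.8 CPM and the T group 1.67 and 3.46 CPM, the former from a single UMI. In each of these 3 genes, both B group values lay above both T group values. For Pou2af1, the coactivator, the B group held 408 and 711 CPM and the T group 55.0 and 82.1 CPM, again without overlap. With 2 values per group, non-overlap is a loose criterion, and its share over all genes was not counted.

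The 2 groups were compared with edgeR's quasi-likelihood test on 4 sums of UMIs, each of 1 group in 1 library, with a term for the library. The log2 fold change of the B group over the T group was 2.99 ± 0.14 (SE, n = 2 libraries) for Xbp1, with an edgeR adjusted p of 8.76e-101. It was 2.98 ± 0.24 for Irf4, with an edgeR adjusted p of 1.33e-32. It was 3.82 ± 0.38 for Prdm1, with an edgeR adjusted p of 2.45e-22. It was 3.03 ± 0.13 for Pou2af1, with an edgeR adjusted p of 4.85e-108. The 2 libraries are loadings of 1 mixture of cultures. These p-values therefore measure how the group difference varied between the libraries, and not the spread between cultures. With 4 sums, the error leans on dispersion shared over genes. Without the library term, the edgeR adjusted p was 4.08e-07 for Xbp1, 3.27e-06 for Irf4, 6.64e-06 for Prdm1 and 1.43e-06 for Pou2af1. In all, 6 of the 8 genes passed the filter on low counts and all 6 of these were called higher in the B group, where 27.7% of the 8925 genes tested were called in that direction. DESeq2 also called these 6, against 11.4% of all genes in that direction. The filter keeps a gene with enough UMIs in 1 group alone. Sdc1 and Prdm1, with few T group UMIs, passed through the B group, so their calls follow in part from the filter. The groups were made from other genes of the same cells, so a high background of calls is part of the comparison. The 8 genes were chosen with earlier results of these data known, so their count of calls is not independent support.

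The surface proteins differed in how well they were detected. Sdc1 had 30 UMIs at 150 cells/µl (65.2 CPM) and 231 at 300 cells/µl (98.9 CPM) in the B group. In the T group it had 0 UMIs at 150 cells/µl and 2 at 300 cells/µl. Against a floor of 3 UMIs per library, Sdc1 was at least 13.0-fold higher in the B group at 150 cells/µl, with a lower 95% counting limit of 9.96-fold. At 300 cells/µl the ratio was 157-fold, with a 95% counting interval of 43.0 to 1306. Its edgeR adjusted p was 1.84e-60. This ratio depended on the grouping, and with groups by the majority of T or B marker UMIs the T group held 12 Sdc1 UMIs at 300 cells/µl, or 3.64% of the B group level. The fitted log2 fold change was 7.25 in the main grouping, 4.88 by marker majority, 6.07 with at least 500 UMIs per cell and 6.01 with at least 95% mouse UMIs. Tnfrsf17 had 2 and 11 UMIs in the B group, or 4.34 and 4.71 CPM, and 0 in the T group of either library. At 300 cells/µl it was at least 4.99-fold higher in the B group than this floor, with a lower 95% counting limit of 3.42-fold, whereas at 150 cells/µl both groups were at or under the floor. Tnfrsf17 did not pass the filter on low counts. In a fit without that filter it was called, with an edgeR adjusted p of 0.00816.

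Mzb1 was the member with the most UMIs, 4279 in all mouse cells. Its level in the B group was 1416 CPM (95% Poisson interval 1309 to 1529) at 150 cells/µl and 1521 CPM (1472 to 1572) at 300 cells/µl. In the T group it was 8.34 CPM and 21.4 CPM. The log2 fold change was 6.29 ± 0.14 (SE, n = 2 libraries), or 6.57 without the shallow clusters, with an adjusted p too small for edgeR to represent. Its size depended on the grouping. When each gene was tested in groups formed on a random set of the other genes, the log2 fold change was 3.99, and those groupings moved 85 and 57 of the 770 cells to the other side. The same 6 members were called higher there, beside 29% of the genes tested. Derl3, the other protein of the endoplasmic reticulum, had 3 and 7 UMIs in the B group and 1 UMI in the T group of each library. It did not pass the filter, and without the filter its edgeR adjusted p was 0.14. At 300 cells/µl the ratio was 9.53-fold, with a counting interval of 1.22 to 430, so a difference in Derl3 was barely detectable at this depth. Its relatives Derl1 and Derl2 were better covered. Derl1 was at 213 and 199 CPM in the B group against 51.7 and 74.9 CPM in the T group.

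**Figure D1:**
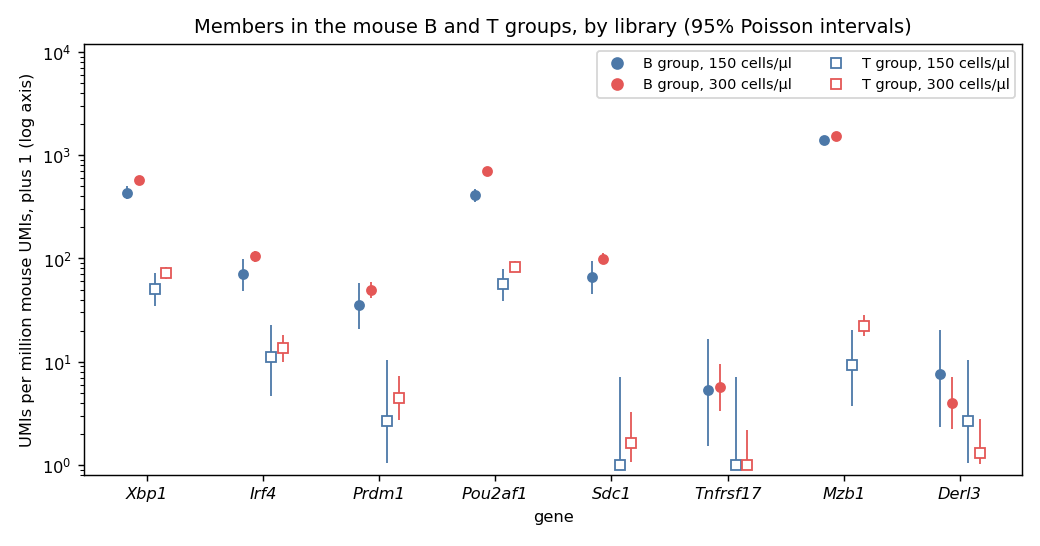
Level of each member in CPM plus 1 (vertical log axis) in the B group (filled circles) and T group (open squares) of the libraries loaded at 150 and 300 cells/µl, with 95% Poisson intervals. Mzb1 stood highest in the B group (1416 and 1521 CPM), while Tnfrsf17 and Derl3 stayed below 7 CPM in both groups.

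The members did not share 1 ratio between the groups. In the T group, Xbp1 stood at 11.5% of its B group level at 150 cells/µl (95% interval 7.57% to 17.0%) and at 12.6% at 300 cells/µl (10.9% to 14.5%). Pou2af1 stood at 13.5% (9.01% to 19.6%) and 11.6% (10.1% to 13.2%). Irf4 stood at 14.4% (4.92% to 34.9%) and 12.1% (8.43% to 17.0%). Mzb1, in contrast, stood at 0.589% (0.191% to 1.38%) and 1.41% (1.09% to 1.79%), and its intervals did not meet those of Xbp1, Pou2af1 or Irf4 in either library. Sdc1 stood at 0.636% at 300 cells/µl (0.0766% to 2.32%). Prdm1 lay between, at 7.09% at 300 cells/µl (3.44% to 13.2%), an interval that met those of Xbp1, Pou2af1 and Irf4 but not that of Mzb1. All these intervals cover counting error only and hold for these groups. In the groups formed on the first split gene set, Mzb1 stood at 6.11% and 6.09% and Sdc1 at 6.43% at 300 cells/µl, against 14.4% and 15.2% for Xbp1. Prdm1 in those groups stood at 4.54% at 150 cells/µl, below Mzb1, and at 10.2% at 300 cells/µl, above it. In those of the second split gene set, Mzb1 stood at 0.372% and 1.19%. With every cell weighted equally, Mzb1 stood at 1.84% and 2.61%, and Irf4 at 26.8% and 14.5%. Mzb1 stayed below Xbp1, Pou2af1 and Irf4 in each of these settings and libraries, while its distance from them changed.

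The small share of Mzb1 in the T group was close to that of other genes of the B group. Jchain, which encodes the chain joining immunoglobulin units, stood at 1.44% in the T group at 300 cells/µl, and the B cell receptor subunit Cd79b at 1.15%. The surface protein Ms4a1 (CD20) stood at 1.04% and the adaptor Blnk at 1.08%. The intervals of these genes at 300 cells/µl all met that of Mzb1. In the groups of the first split gene set, Jchain stood at 4.40% at 300 cells/µl, below the 6.09% of Mzb1. Without the shallow clusters, Mzb1 stood at 0.375% at 150 cells/µl, and at 300 cells/µl Mzb1 stood at 1.17% and Xbp1 at 12.2%.

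**Figure D2:**
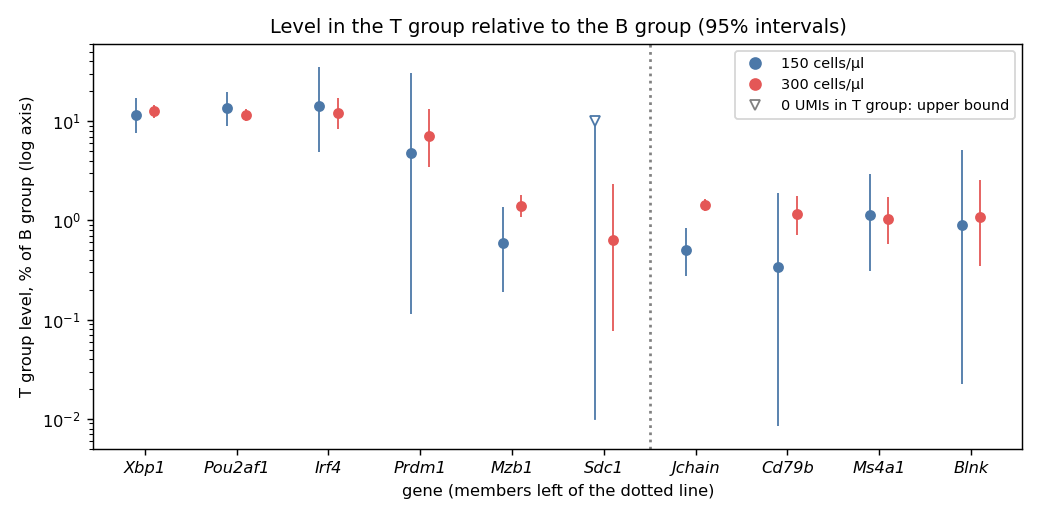
T group level as a percentage of the B group level (vertical log axis) for 6 members and 4 other B lineage genes in both libraries, with 95% intervals from exact conditional binomial counts. Xbp1, Pou2af1 and Irf4 lay between 11.5% and 14.4%, and Mzb1 and Jchain at or below 1.44%.

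Mouse UMIs in human cells were used as a measure of mouse RNA free in the droplets, which was not tested in another way. In the 318 human cells at 300 cells/µl, Mzb1 had 40 UMIs and Xbp1 14, which is 0.35 Xbp1 UMIs per Mzb1 UMI (95% interval 0.176 to 0.657). The B group had 0.374 (0.351 to 0.398) and the T group 3.34 (2.54 to 4.44). Pou2af1 gave 0.35 UMIs per Mzb1 UMI in human cells (0.176 to 0.657), 0.467 in the B group (0.44 to 0.495) and 3.84 in the T group (2.93 to 5.09). Irf4 gave 0.075 in human cells (0.0148 to 0.236), 0.0684 in the B group and 0.588 in the T group (0.388 to 0.882). At 300 cells/µl the T group carried more Xbp1, Pou2af1 and Irf4 per Mzb1 UMI than the human cells did. The source of these T group UMIs was not tested. Jchain did not differ in this way, with 2.23 UMIs per Mzb1 UMI in human cells (1.52 to 3.32) and 2.74 in the T group (2.06 to 3.67). At 150 cells/µl human cells held 4 Mzb1 UMIs, too few for this comparison.

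Detection per cell was compared at an equal depth of 2000 UMIs drawn at random from every cell, which left out 5 and 63 cells of the B group, 7 and 46 of the T group and 5 and 36 human cells at 150 and 300 cells/µl. At least 1 Mzb1 UMI was found in 28 of 30 B group cells (93.3%, 95% exact binomial interval 77.9% to 99.2%) and in 216 of 234 (92.3%, 88.1% to 95.4%). Pou2af1 was found in 50.0% and 68.4% of B group cells and Xbp1 in 46.7% and 56.8%. Sdc1 was found in 26.7% and 16.7%, Irf4 in 13.3% and 16.2%, and Prdm1 in 3.33% and 8.55%. Tnfrsf17 was found in 1 and 2 cells, and Derl3 in 0 and 2 cells. The 0 of 30 for Derl3 allows a share of up to 10% of cells with a UMI by the limit of 3 counts. Before thinning, Mzb1 was found in 35 of 35 and 284 of 297 B group cells.

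In the T group at 300 cells/µl, Xbp1 was found in 11.7% of 342 thinned cells (8.49% to 15.6%) and in 1.42% of 282 human cells (0.388% to 3.59%). Pou2af1 was found in 14.0% (10.5% to 18.2%) and in 1.77% of human cells (0.578% to 4.09%). Both lay above the share in human cells at this depth. Mzb1 was found in 4.39% of T group cells (2.48% to 7.13%) and in 5.32% of human cells (3.01% to 8.62%), and these intervals met. Irf4 was found in 2.92% of T group cells (1.41% to 5.31%) and in 0.709% of human cells (0.086% to 2.54%), and these intervals met. Sdc1 was found in 0 of 342 T group cells, which allows a share of up to 0.877% by the limit of 3 counts. Median depths of these cells before thinning were 8160.5 UMIs in the T group and 3952 in human cells. The part of free RNA in these shares was not tested. At 150 cells/µl, Xbp1 was found in 2 of 43 T group cells and 0 of 82 human cells, so no difference was detectable there. With no thinning, Xbp1 was found in 38.9% of T group cells and 4.40% of human cells at 300 cells/µl.

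**Figure D3:**
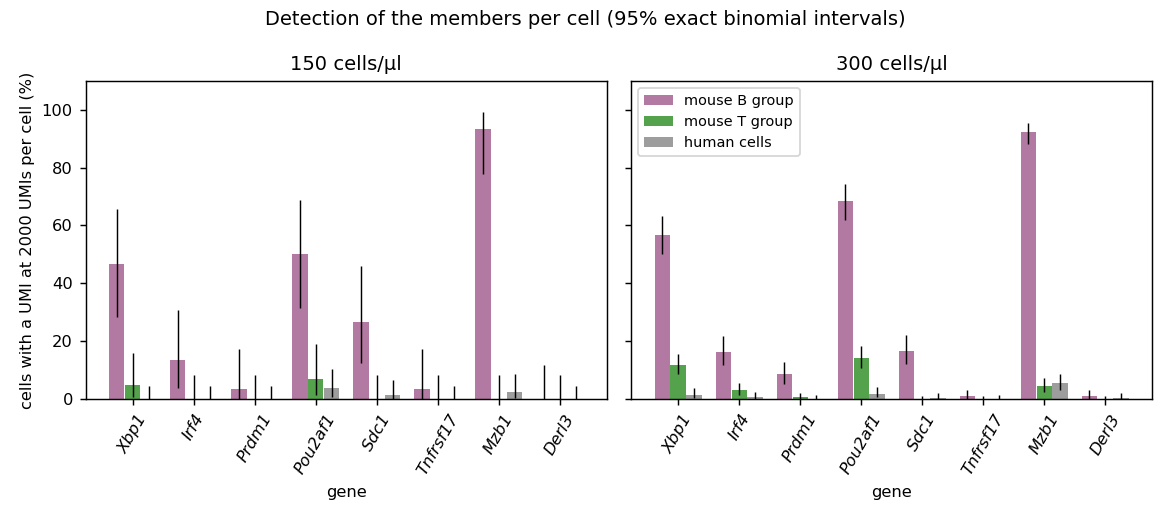
Percentage of cells with at least 1 UMI of each member after thinning to 2000 UMIs per cell, for the mouse B group, the mouse T group and human cells, at 150 cells/µl (left) and 300 cells/µl (right), with 95% exact binomial intervals. Mzb1 was found in 93.3% and 92.3% of B group cells, and at 300 cells/µl Xbp1 and Pou2af1 were found in more T group than human cells.

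Few B group cells showed many members at once after thinning, a depth at which most members are rarely sampled. These counts therefore do not measure coexpression. At 2000 UMIs per cell, the median B group cell had 2 members detected at 150 cells/µl and 3 at 300 cells/µl, and 3 of 234 cells at 300 cells/µl had none. The median T group cell had none in either library. At 300 cells/µl, 240 of 342 T group cells had none, 90 had 1, and 12 had more.

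Levels within the B group were spread widely. Among the 179 B group cells of at least 5000 UMIs at 300 cells/µl, Mzb1 ran from 0 through a median of 1447 to 4441 CPM, with 3 cells at 0. Xbp1 ran from 0 through 414 to 2908 CPM and Pou2af1 from 0 through 669 to 2276 CPM. Among the 27 such cells at 150 cells/µl, Mzb1 ran from 602 through 1346 to 3227 CPM. After thinning, the variance of Mzb1 over cells was 1.77 and 1.76 times its mean, where counting alone gives a ratio of 1. The corresponding ratio was 1.5 and 1.74 for Xbp1 and 1.07 and 1.41 for Pou2af1. Over the 179 cells the Pearson r of log2(CPM + 10) was 0.24 between Mzb1 and Xbp1, 0.23 between Xbp1 and Irf4, and 0.01 between Xbp1 and Pou2af1. Over the 27 cells at 150 cells/µl these values were 0.45, 0.55 and 0.10. Cells of 1 library share its depth and preparation, and correlations of sparse counts are given as a description.

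**Figure D4:**
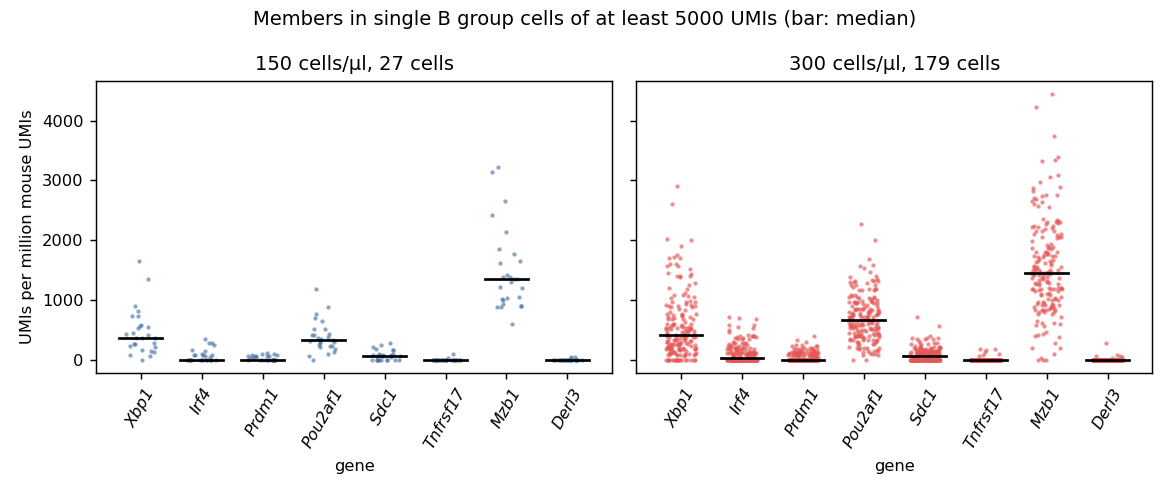
Level of each member in single B group cells of at least 5000 UMIs (points, in CPM) with the median over cells (bar), for 27 cells at 150 cells/µl and 179 cells at 300 cells/µl. Mzb1 medians were 1346 and 1447 CPM, and the medians of Prdm1, Tnfrsf17 and Derl3 were 0.

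The 2 deeper clusters of the B group, called B1 and B2, gave different counts of members at 150 cells/µl. The intervals are Poisson intervals of sums and leave out the spread between cells, so no difference between the clusters is drawn from them. Pou2af1 was at 567 CPM in B1 (95% interval 466 to 682) and at 276 CPM in B2 (215 to 349). Xbp1 was at 546 CPM (448 to 660) and 340 CPM (272 to 420), and Mzb1 at 1608 CPM (1435 to 1795) and 1164 CPM (1034 to 1306). At 300 cells/µl the intervals of B1 and B2 met for Pou2af1 (713 and 727 CPM) and for Xbp1 (606 and 554 CPM). They met narrowly for Mzb1, at 1600 CPM (1529 to 1673) and 1455 CPM (1380 to 1533). For Irf4 the intervals met at 150 cells/µl, at 102 CPM in B1 (62.4 to 158) and 36.0 CPM in B2 (16.5 to 68.3), whereas at 300 cells/µl it was at 86.6 CPM (70.7 to 105.1) and 130 CPM (109 to 155). B1 and B2 held 14 and 13 cells at 150 cells/µl, and 146 and 73 at 300 cells/µl.

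Between the loading concentrations no test was possible, since each had 1 library. In the B group the level at 300 cells/µl was 1.74 times that at 150 cells/µl for Pou2af1 (95% counting interval 1.5 to 2.04) and 1.31 times for Xbp1 (1.13 to 1.53). Mzb1 gave 1.08 times (0.988 to 1.17). Sdc1 gave 1.52 times (1.04 to 2.3) and Irf4 1.5 times (1.03 to 2.24). No member with at least 100 UMIs over both libraries passed 2-fold, where 4.41% of 4603 such genes did so in either direction in the B group. In the T group Xbp1 and Pou2af1 reached 100 UMIs and neither passed 2-fold, where 3.36% of 5474 genes did. On the log2 scale, the median gene was 0.12 higher at 300 cells/µl, and TMM scaling lowered the B group ratios by 0.10. The 8 genes summed to 2439 CPM at 150 cells/µl (2298 to 2586) and 3061 CPM at 300 cells/µl (2990 to 3132). Median depth was 13629 UMIs in the B group at 150 cells/µl and 6581 at 300 cells/µl. The part of depth in these differences was not tested.

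Other genes of the plasma cell state rose with the members. Of 10 further plasma cell genes, 9 passed the filter and all 9 were called higher in the B group, with a median log2 fold change of 5.60 beside -0.03 over all genes tested. Of all genes tested, 27.7% were called higher. This list was also chosen with earlier results of these data known, so its count is not independent support. Genes with few T group UMIs, such as Ell2, Tent5c, Eaf2, Slamf7 and Fkbp11, passed the filter through the B group. Their calls follow in part from the filter. Il6ra (edgeR adjusted p 0.0281) lost its call with DESeq2, as did Txndc5. Ell2, an elongation factor that favours the secreted form of immunoglobulin, was at 165 and 154 CPM in the B group against 1.67 and 2.52 CPM in the T group. Tent5c, a poly(A) polymerase, was at 152 and 226 CPM against 1.67 and 3.77 CPM. Eaf2, a partner of the elongation factors, was at 126 and 120 CPM against 1.67 and 2.52 CPM. The surface receptor Slamf7 was at 119 and 109 CPM, with 0 and 5 UMIs in the T group, and the prolyl isomerase Fkbp11 was at 76.0 and 67.6 CPM, with 0 and 2 UMIs. Tnfrsf13b (TACI), a receptor related to Tnfrsf17, differed less, at 163 and 150 CPM in the B group against 45.0 and 36.8 CPM in the T group. Jchain was at 4676 and 4072 CPM in the B group against 23.3 and 58.5 CPM. Cd38 had 3 UMIs in all and was not tested.

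The genes of the unfolded protein response and the secretory route, which Xbp1 is known to serve, moved less. Of 23 such genes tested, 18 were called higher in the B group, 1 was called lower and 4 were not called, with a median log2 fold change of 0.69. Over all genes tested, edgeR called 27.7% higher and 29% lower. The choice of this list, too, was made with earlier results of these data known. DESeq2 called 11 of the 23 higher and 1 lower, where it called 11.4% of all genes higher. The chaperone Hspa5 (BiP) was at 1857 and 2135 CPM in the B group against 985 and 1145 CPM in the T group, with a log2 fold change of 0.87 ± 0.08 (SE, n = 2 libraries). Hsp90b1 gave 0.55 ± 0.07, Calr 0.56 ± 0.09 and Pdia6 0.69 ± 0.10. Without the library as a block, 6 of the 18 lost their calls, among them Hsp90b1 and Calr, with edgeR adjusted p of 0.11 and 0.115. The largest differences in this list were those of Ern1, the sensor that splices Xbp1 RNA, at 3.08 ± 0.64 from 46 UMIs in all, and of Creld2 at 2.02 ± 0.13. DESeq2 did not call Ern1, with an adjusted p of 0.171. Ern1 passed the filter through the B group, so its edgeR call follows in part from the filter. Dnajc3, a co-chaperone, was lower in the B group, at 63.0 and 94.6 CPM against 145 and 190 CPM. Splicing of Xbp1 RNA cannot be read from these gene counts.

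Of 6 transcription factors that act with or before the members, 4 were tested, of which 1 was called higher and 3 lower in the B group, where 29% of all genes were called lower. Spi1 (PU.1), a partner of Irf4, was called higher in the B group, at 36.9 and 60.8 CPM with 0 and 3 UMIs in the T group. Spi1 passed the filter through the B group, so its call follows in part from the filter. Ikzf1 (Ikaros) was called lower, at 141 and 140 CPM in the B group against 499 and 556 CPM in the T group. Ikzf3 (Aiolos) was called lower, at 4.34 and 6.42 CPM against 95.03 and 91.8 CPM. Ikzf3 passed the filter through the T group, so its call also follows in part from the filter. Pou2f2 (Oct-2), which recruits Pou2af1, was called lower by edgeR with an adjusted p of 0.00218 but was at 54.3 CPM in the B group against 43.4 CPM in the T group at 150 cells/µl, and DESeq2 did not call it. At 300 cells/µl it was at 50.5 CPM against 95.3 CPM. Spib had 21 UMIs and Irf8 25 UMIs in all mouse cells, and all 25 of the latter were in the T group.

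**Figure D5:**
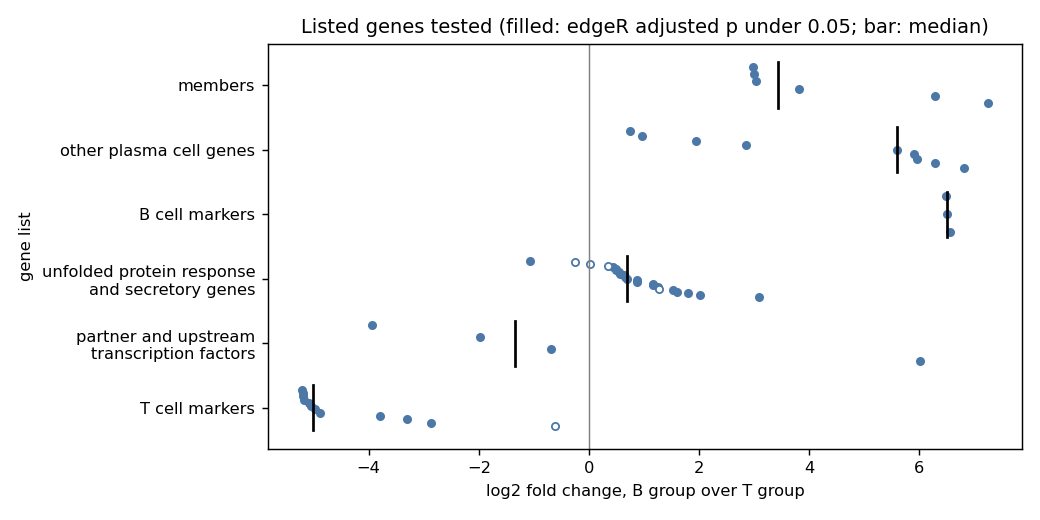
Log2 fold change of the B group over the T group (horizontal axis) for the tested genes of each list, with filled points for genes called by edgeR at an adjusted p under 0.05, open points for the others and a bar at each list's median. The medians were 3.42 for the members, 5.60 for other plasma cell genes and 0.69 for unfolded protein response and secretory genes.

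The genes whose pattern was most like that of Mzb1 were sought among the listed genes, over 10 sums of UMIs, each of 1 cluster in 1 library with at least 10 cells. The Pearson r of log2(CPM + 10) was 0.997 for Jchain, 0.986 for Cd79b and 0.985 for Eaf2. The sums fall into the 2 groups, so these values mostly repeat the difference between the groups and are given as a description.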

How the data were processed

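Drop-seq libraries of the cell line mixture were encapsulated on the Dolomite system by the authors, who deposited 1 table of raw UMI counts per library (2000 and 4000 barcodes, 2398956 and 8707135 UMIs). Per the study's methods, reads were downsampled and processed with Drop-seq tools and STAR against a joint hg19 and mm10 reference. The submitters' processing notes name STAR 2.4.2a and Cell Ranger 1.2.0. Whether the deposited counts came from downsampled reads is not stated.

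The members and gene lists were chosen with earlier results of these data known. The symbols of the 8 members came with their identifiers. The tables hold Ensembl identifiers only, and those of the 66 other listed genes were paired with symbols by hand; 3 of the listed genes are not reported here.

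Mouse cells were clustered without any listed gene (counts scaled to 10000, the 2000 most variable genes, 15 principal components, 15 neighbours, Leiden resolution 0.5, leidenalg 0.10.2) and clusters were joined into 2 groups by average linkage. Sums per library and group were tested with edgeR 4.0.16 (TMM, filterByExpr, library as a block, Benjamini-Hochberg at 0.05), which was tested on simulated data. SE was the log2 fold change divided by the root of the F statistic. Intervals are exact at 95% (Poisson, Clopper-Pearson, conditional binomial). The floor is 3 counts per library. Named genes were the members, the 4 genes of each list with the most UMIs and the 2 called with the largest change. Others lay outside this rule and were named after their values were seen. These were Derl1, Derl2, Il6ra, Txndc5, Dnajc3, Cd38, Cd2, Spib, Irf8, Pax5, Cd79a, Cd22, Bcl6, Btk and Ciita. Alternatives included DESeq2 1.42.0.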

Additional observations from a re-analysis of the deposited data

Results flagged for a closer look

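Members were also found in barcodes that no comparison used. Barcodes under 1000 UMIs held 445 UMIs of the 8 genes at 150 cells/µl (940 CPM over 1810 barcodes, 95% Poisson interval 855 to 1032) and 1985 at 300 cells/µl (1551 CPM over 2876 barcodes, 1483 to 1621). Mixed barcodes of at least 1000 UMIs held 8 at 150 cells/µl (474 CPM over 18 barcodes) and 186 at 300 cells/µl (1462 CPM over 121 barcodes). These levels lay between those of the T group (127 and 192 CPM) and the B group (2439 and 3061 CPM). Their source was not tested.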

How the results depend on the processing

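The 66 alternative fits of the members' fold changes all kept direction and call, with sizes that moved most for Mzb1 (3.99 to 6.65) and Sdc1 (4.88 to 7.40), and all 12 values that leave out 1 library kept direction. The count of members called was 6 in each setting except without a filter on low counts, which gave 7. DESeq2 called 1953 genes where edgeR called 5061, and edgeR without the library block called 3493; the cause was not tested. With cells weighted equally, the summed members were at 2964 CPM in the B group at 150 cells/µl, 3215 CPM in the B group at 300 cells/µl and 238 CPM in the T group at 300 cells/µl. With at least 500 UMIs, the T group at 300 cells/µl was at 212 CPM. Thinned to 1000 UMIs, the share of cells with any member was 93.6% in the B group and 20.1% in the T group at 300 cells/µl, against 98.7% and 29.8% at 2000 UMIs; unthinned, it was 72.0% and 72.7% in the T group at 150 and 300 cells/µl, against 11.6% and 29.8%. More UMIs per cell give more detections by construction. TMM scaling gave a log2 ratio of the summed members between libraries of 0.23 in the B group, against 0.33. Leaving out the shallow clusters was added after seeing the data and kept all 6 calls. The comparison of the groups pairs them within each library through the library block. No paired analysis was possible because the loading concentrations had 1 library each, so the concentrations share no more than 1 replicate number. Depth limits Tnfrsf17 and Derl3 throughout, and the library at 150 cells/µl gives wide intervals for Irf4, Prdm1 and Sdc1.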
